A study of Mus musculus with 6 samples.

Results

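These results concern 38 mouse genes that act in meiotic recombination, in the cohesin of meiotic chromosomes and in synapsis, measured in embryonic stem cells with and without a vitamin C derivative. The genes were taken by symbol from the array's platform annotation. Of the 38 genes, 37 have at least 1 feature annotated with their symbol alone, and these stand on 39 features out of 23521 features with a single symbol. Mei4 and Aurkc have 2 features each, and Sycp3 lies only on a feature that also carries the symbol Chpt1 and is described apart.

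The cells were of the line R1, male mouse embryonic stem cells of the cross 129X1 x 129S1. All cultures were grown on gelatin without a feeder layer being named, in medium with serum and the cytokine LIF, which holds such cells in self-renewal. The untreated group had no addition, and the treated group received ascorbic acid 2-glucose (AA2G), a derivative of vitamin C, at 0.74 mM (250 µg/ml) for 3 days. Each group has 3 arrays, labelled as independent replicates of this 1 line. Values are log2 expression values from the RMA procedure, and every difference below is AA2G minus untreated on that log2 scale. The table holds no call of presence, so whether a dim feature reads above background is not known. A difference between bulk cultures does not separate more RNA per cell from more cells with the RNA.

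Meiosis joins homologous chromosomes through breaks that the cell makes in its own DNA. SPO11 cuts at sites that PRDM9 marks, a complex with REC114, MEI4 and IHO1 licenses the cut on the chromosome axis, and the axis itself is built from meiotic cohesin, HORMA domain proteins and SYCP2 with SYCP3. DMC1 then repairs the breaks from the homologue, the synaptonemal complex joins the axes, and telomeres are tied to the nuclear envelope. In somatic cells and early embryonic cells many of these genes are kept silent, in part by DNA methylation and by repressors such as the PRC1.6 complex, whose subunits MGA with MAX and E2F6 bind E-box and E2F-type sequences. Ascorbate is a cofactor of the TET enzymes, which oxidise methylated cytosine.

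With AA2G, 7 of the 39 member features rose and 0 fell at a Benjamini-Hochberg adjusted p under 0.05 in limma, taken over all 23521 features. The 7 are features of Rec114, Hormad1, Smc1b, M1ap, Terb2, Hormad2 and Aurkc, with fitted folds from 5.01 down to 1.40. Over all features 0.608% were called higher and 0.153% lower, 0.761% in all, against 17.9% called higher among the member features. The 3 AA2G arrays all lay above the 3 untreated arrays for 18 member features (46.2%, against 7.21% of all features) and all below for 1 (2.56%, against 8.48%). The median difference was 0.17 over the members and -0.01 over all features, and 27 of the 39 differences were positive (69.2%, against 47.7%). The members were proposed with earlier results of these arrays known, so these counts are a description of the list and not an independent test of its direction. Without AA2G replicate 2 the count was 4, and with ordinary per-feature variances, without limma's pooling of variances over features, it was 2 (Rec114 and M1ap).

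**Figure D1:**
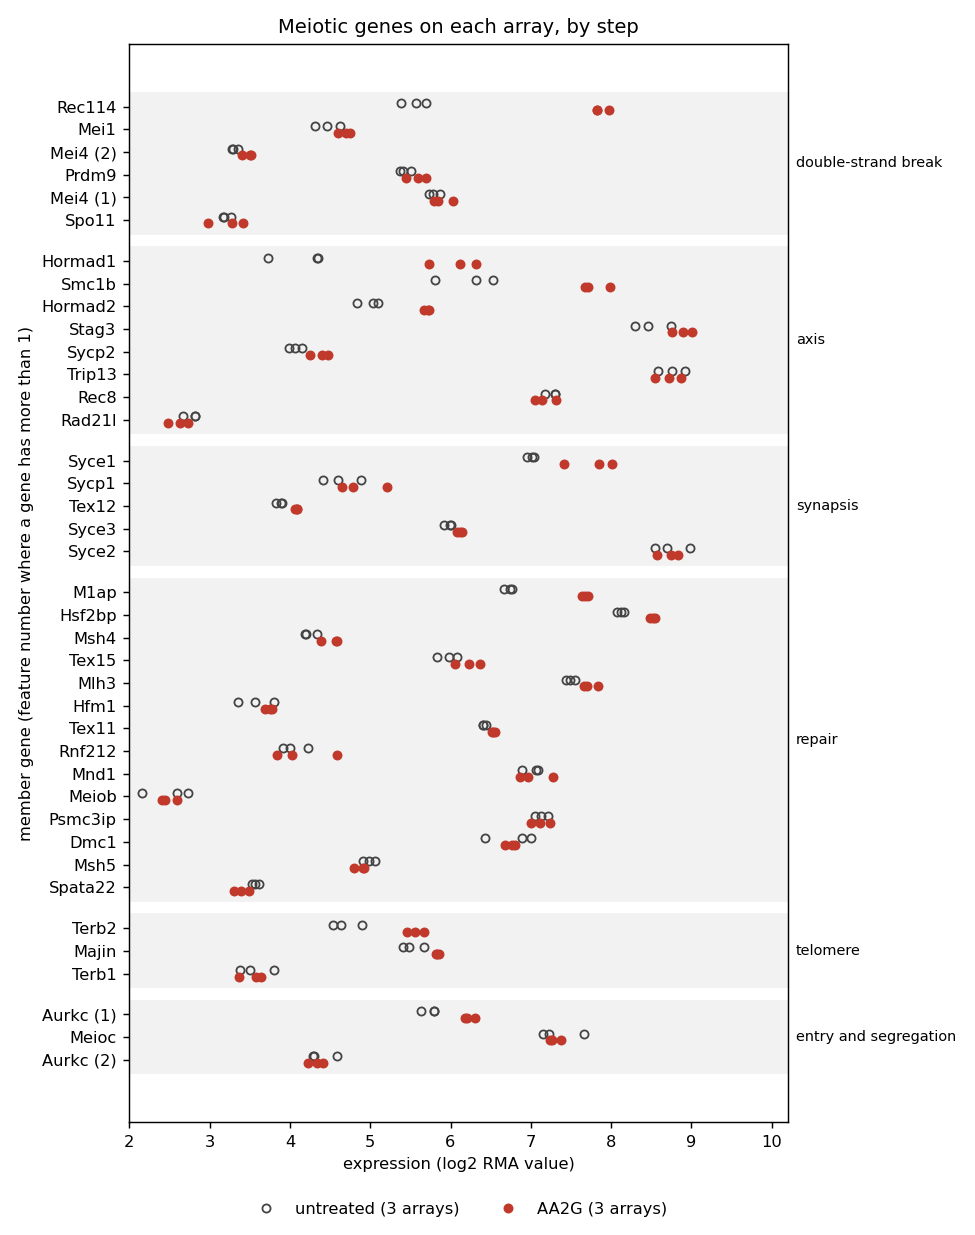
Log2 RMA value (x axis) of each member feature (y axis, grouped by meiotic step) on the 3 untreated arrays (open circles) and the 3 AA2G arrays (filled circles). Rec114, Hormad1, Smc1b and M1ap show separate groups, from 5.69 and below to 7.82 and above for Rec114, while the groups of Dmc1, Rec8 and Trip13 overlap.

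The promoters of 4 of the genes that rose and whose windows hold a sequence element of interest are shown. Those of Hormad2 and Aurkc, which hold none, are not printed. Each is the 250 bases before the annotated start, from RefSeq on GRCm38.p6, written 5′ to 3′ on the gene's strand. Capitals mark matches to the E-box CACGTG and to the E2F-type element TCCCGC, or GCGGGA on the other strand. Rec114 is at chr9:58741560-58741809 (minus strand), Hormad1 at chr3:95559427-95559676 (plus), Smc1b at chr15:85131958-85132207 (minus) and M1ap at chr6:82946672-82946921 (plus).
Rec114: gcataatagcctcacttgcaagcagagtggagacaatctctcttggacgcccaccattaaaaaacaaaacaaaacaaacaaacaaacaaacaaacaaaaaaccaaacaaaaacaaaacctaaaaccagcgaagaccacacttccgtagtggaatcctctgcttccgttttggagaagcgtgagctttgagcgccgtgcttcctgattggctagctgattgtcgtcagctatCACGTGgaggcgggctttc
Hormad1: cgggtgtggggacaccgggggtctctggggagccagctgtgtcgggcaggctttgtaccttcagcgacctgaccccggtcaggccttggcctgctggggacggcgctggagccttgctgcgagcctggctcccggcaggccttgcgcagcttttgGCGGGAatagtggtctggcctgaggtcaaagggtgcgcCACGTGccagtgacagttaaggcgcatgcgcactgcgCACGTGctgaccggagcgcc
Smc1b: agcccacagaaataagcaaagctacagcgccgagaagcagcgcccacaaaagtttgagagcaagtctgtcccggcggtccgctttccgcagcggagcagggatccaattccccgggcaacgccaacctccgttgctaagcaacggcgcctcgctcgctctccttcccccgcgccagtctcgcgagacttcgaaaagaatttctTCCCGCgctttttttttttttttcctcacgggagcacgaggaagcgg
M1ap: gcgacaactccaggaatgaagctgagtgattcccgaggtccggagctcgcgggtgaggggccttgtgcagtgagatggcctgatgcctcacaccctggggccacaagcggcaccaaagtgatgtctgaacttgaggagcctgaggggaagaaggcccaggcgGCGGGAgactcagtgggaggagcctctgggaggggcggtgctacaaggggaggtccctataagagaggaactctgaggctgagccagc

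The Rec114 promoter holds 1 E-box, which begins 19 bases before the start, and 1 E2F-type match after the start at position 27, outside the bases printed. Hormad1 holds 2 E-boxes, which begin 57 and 20 bases before the start, and 1 E2F-type match at 95 bases. Smc1b has 1 E2F-type match at 47 bases and M1ap 1 at 88 bases, and neither window holds the E-box letters. The windows of Hormad2 and Aurkc hold neither element. Terb2 had no RefSeq window, so 6 of the 7 called genes are covered.

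RefSeq windows of 300 bases, 250 before and 50 after the start, were given for 31 member genes (36 windows, since some genes have more than 1 start). An E-box lay in 8 of the 36 (22.2%), against 7.15% of 32851 windows of all genes and 8.07% of windows of genes with a tested feature. An E2F-type match on either strand lay in 23 (63.9%), against 20.0% and 25.9%. All 8 windows with an E-box also held an E2F-type match, a pairing found in 1.99% of all windows and 2.72% of windows of genes with a tested feature. The elements were not limited to genes that rose: E2F-type matches lay in 5 of 7 windows of called members (71.4%) and in 18 of 29 windows of members not called (62.1%), among them those of Dmc1, Rec8, Psmc3ip and Spata22. E-boxes lay in 3 of 7 and 5 of 29 (17.2%) of these windows. Overlapping windows of Hormad1 make up 2 of these 3, and also 2 of the 5 called windows with an E2F-type match. The ratio of CpG observed to CpG expected from base content had a median of 0.71 over member windows, of 0.38 over all windows and of 0.57 over windows of genes with a tested feature. Within the members it ran from 0.22 to 1.15, with 1.08 for Smc1b, 0.71 for Rec114 and Hormad1, 0.43 for M1ap and 0.38 for Aurkc. Both elements contain a CpG, and the shares were not adjusted for base content. The median G and C content was 60.7% in member windows and 56.7% in windows of genes with a tested feature. A match says only that the letters occur, and no binding or methylation was measured on these arrays.

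**Figure D2:**
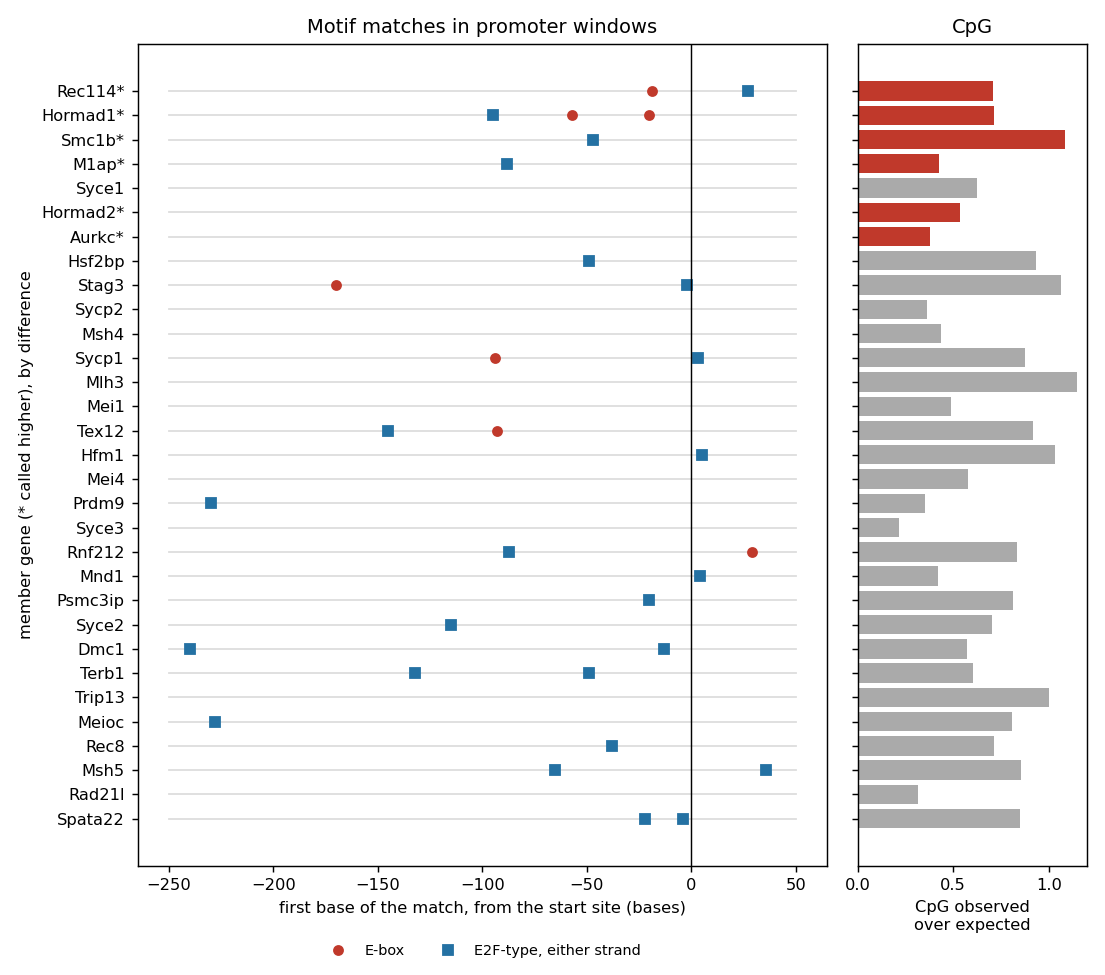
Left, position of the first base of each E-box (circles) and E2F-type match (squares) relative to the annotated start in bases, in the first listed promoter window of 31 member genes, ordered by the difference between AA2G and untreated arrays. Right, the ratio of observed to expected CpG in the same window, with called genes in red and marked by asterisks. E2F-type matches lie in windows of called genes (Smc1b, M1ap) and of genes with differences near 0 (Dmc1, Rec8).

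Among the genes of break formation, Rec114 (Entrez Gene 73673, chromosome 9) rose and its partners did not pass. Rec114 read 5.69, 5.38 and 5.56 on the untreated arrays and 7.83, 7.82 and 7.97 on the AA2G arrays. The lowest AA2G array was above the highest untreated array by more than the whole spread within either group. The difference was 2.33 ± 0.10 (SE; 5.01-fold; limma adjusted p = 6.89e-05), the fifth largest rise of all 23521 features.

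The gene of its binding partner, Mei4, has 2 features. The first had a mean of 5.79 ± 0.07 without and 5.89 ± 0.13 with AA2G (SD, n = 3 a group), and its groups overlap. The second read 3.27, 3.35 and 3.28 against 3.52, 3.40 and 3.50, which do not overlap, but the difference of 0.17 did not pass (adjusted p = 0.502). Iho1, the third gene of the complex and taken from a list of other meiotic genes, was at 0.12 ± 0.08 (SE; adjusted p = 0.727).

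Spo11, which encodes the catalytic subunit of the break enzyme, read 3.18, 3.16 and 3.27 on the untreated arrays and 3.42, 2.98 and 3.27 on the AA2G arrays, and the AA2G arrays lay on both sides of the untreated ones. Its difference was 0.02 with a 95% interval from -0.24 to 0.28. Gm960, the annotated symbol of the gene for its partner TOPOVIBL, was at 0.02 ± 0.09 (SE). The hotspot methyltransferase gene Prdm9 was at 0.15 ± 0.09 (adjusted p = 0.639), and Mei1, which is also needed for breaks, at 0.22 ± 0.10 (adjusted p = 0.518). For both, the highest untreated array was above the lowest AA2G array. Of the 6 features of this step, which include both of Mei4, 1 was called (16.7%, against 0.608% of all features called higher). All 6 differences were positive, against 47.7% of all features, but that of Spo11 went down to -0.08 in the alternatives.

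The chromosome axis held 3 of the 7 calls among its 8 features (37.5%, against 0.608% of all features called higher). Hormad1 (67981, chromosome 3), a HORMA domain protein that coats unsynapsed axes, read 4.35, 4.33 and 3.73 without and 5.73, 6.31 and 6.11 with AA2G. The groups are far apart, although untreated replicate 3 was the lowest by a wide margin. The difference was 1.92 ± 0.20 (SE; 3.77-fold; adjusted p = 0.00567), with an interval from 1.46 to 2.37. The call of Hormad1 held in 14 of 15 alternatives and was lost with ordinary variances (adjusted p = 0.207).

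Its paralogue Hormad2 (75828, chromosome 11) read 4.84, 5.03 and 5.10 against 5.73, 5.72 and 5.67. The 3 AA2G arrays were nearly alike, and all were above the untreated arrays. The difference was 0.72 ± 0.09 (SE; 1.64-fold; adjusted p = 0.00937). That call was lost without AA2G replicate 2 (adjusted p = 0.0528) and with ordinary variances (0.165), the highest of 15 alternatives, of which the lowest was 0.00472. Trip13, the gene of the ATPase that strips HORMA proteins from synapsed axes and that also acts in the mitotic spindle checkpoint, had overlapping groups at 8.76 ± 0.17 and 8.71 ± 0.16 (SD, n = 3), and the 95% interval of its difference ran from -0.31 to 0.22.

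Cohesin holds sister chromatids in a ring, and meiotic cells replace several of its subunits. Smc1b (140557, chromosome 15), the meiotic form of the SMC1 subunit, read 6.52, 5.80 and 6.31 on untreated arrays and 7.98, 7.72 and 7.68 with AA2G. Untreated replicate 2 was the lowest of its group, and no AA2G array came within the untreated range. The difference was 1.58 ± 0.18 (SE; 2.99-fold; adjusted p = 0.00798). The call of Smc1b held in 14 of 15 alternatives and was lost with ordinary variances (adjusted p = 0.223). Its somatic counterpart Smc1a was at 0.03 ± 0.09.

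The other meiotic cohesin subunits did not pass. Stag3 read 8.75, 8.30 and 8.46 against 9.01, 8.76 and 8.90, so that the lowest AA2G array was only just above the highest untreated one. Its difference of 0.39 ± 0.12 (SE) had an adjusted p of 0.313, beside -0.08 ± 0.07 for the somatic Stag1 and -0.26 ± 0.10 for Stag2. The kleisin genes Rec8 and Rad21l were at -0.09 ± 0.09 and -0.16 ± 0.09, with groups that overlap, and the somatic kleisin gene Rad21 was at -0.05 ± 0.08. Of the 4 meiotic cohesin genes, Smc1b and Stag3 thus had all AA2G arrays above the untreated arrays, against 7.21% of all features. Smc1b was the one called. The somatic Stag2 also had separate groups, with all AA2G arrays below, against 8.48% of all features.

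Sycp2, which forms the axial element, read 4.07, 3.99 and 4.15 against 4.25, 4.40 and 4.48. The groups do not overlap, and the difference of 0.31 ± 0.09 (SE) had an adjusted p of 0.236. The feature shared by Sycp3 and Chpt1, a gene of phospholipid synthesis, had a mean of 6.91 ± 0.20 without and 7.04 ± 0.04 with AA2G (SD, n = 3 each). Its groups overlap, and with all 41345 features fitted together its difference was 0.13 ± 0.11 (adjusted p = 0.851), a value that cannot be assigned to either gene.

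Of the 5 synapsis genes limma called 0, against 0.761% of all features, so 0 calls among 5 features say little about this step. An unadjusted p under 0.05 was reached by 2, both with positive differences, against 1095 of all 23521 features. All AA2G arrays lay above the untreated arrays for 3 of the 5, against 7.21% of all features. Syce1 (74075, chromosome 7), a central element protein of the synaptonemal complex, had the largest difference of all member features that were not called. It read 6.96, 7.05 and 7.02 without and 7.42, 8.01 and 7.86 with AA2G. All AA2G arrays were above the untreated ones, with AA2G replicate 1 nearer to them than the other two. The difference was 0.75 ± 0.14 (SE; adjusted p = 0.0752), and without AA2G replicate 1 it was 0.92 with an adjusted p of 0.00759 (from 0.00759 to 0.353 over 15 alternatives, 4 of which called it).

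The other central element genes were closer to 0. Tex12 read 3.90, 3.89 and 3.82 against 4.09, 4.09 and 4.07, and Syce3 6.01, 5.92 and 5.99 against 6.12, 6.14 and 6.09. Both sets of groups are separate by a small step, and the adjusted p values were 0.313 and 0.571. Syce2 was at -0.03 ± 0.12 (SE). Sycp1, the transverse filament that bridges the axes, was at 4.63 ± 0.24 and 4.88 ± 0.29 (SD, n = 3), with overlapping groups.

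**Figure D3:**
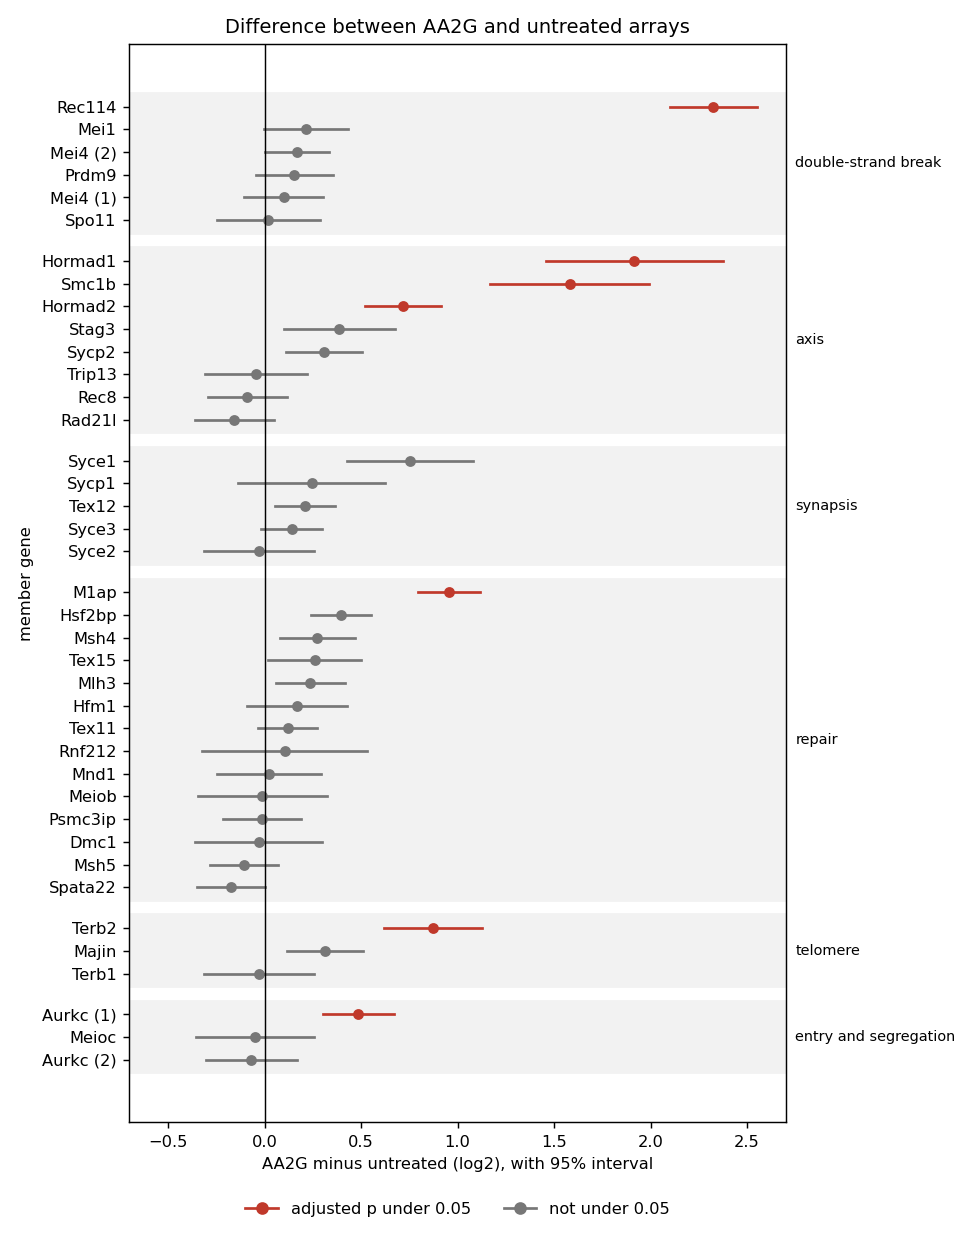
Difference between the AA2G and untreated arrays (x axis, log2, with 95% intervals of the limma fit) for the 39 member features grouped by step. The 7 features with an adjusted p under 0.05 (red) run from 0.49 for Aurkc to 2.33 for Rec114, and the 32 others (grey) from -0.17 to 0.75.

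In the repair step, 1 of 14 features was called (7.14%, against 0.608% of all features called higher). M1ap (110958, chromosome 6), which is needed for the first meiotic division of the male germ line, read 6.74, 6.66 and 6.77 against 7.72, 7.67 and 7.64. Both groups were narrow and lay far apart. The difference was 0.95 ± 0.07 (SE; 1.94-fold; adjusted p = 0.000833). For Rec114 and M1ap the adjusted p stayed under 0.05 in all 15 alternatives.

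Hsf2bp (74377, chromosome 17), which encodes a meiotic partner of BRCA2, stood just outside the threshold. It read 8.16, 8.08 and 8.13 without and 8.48, 8.53 and 8.54 with AA2G, with narrow groups that do not overlap. The difference was 0.39 ± 0.07 (SE; 1.31-fold), and its adjusted p of 0.0503 fell under the threshold in 5 of 15 alternatives, between 0.0135 and 0.0482, and reached 0.228 without AA2G replicate 3. Brca2 itself read 8.65, 8.53 and 8.63 against 8.90, 9.01 and 8.87, also separate, with a difference of 0.33 ± 0.08 (adjusted p = 0.143).

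The genes of strand exchange did not pass. The recombinase gene Dmc1 read 7.01, 6.43 and 6.89 against 6.81, 6.67 and 6.76, with the AA2G arrays inside the untreated range. Its difference was -0.03, with a 95% interval from -0.36 to 0.30. The genes of the DMC1 cofactors, Psmc3ip and Mnd1, were at -0.01 ± 0.09 (SE) and 0.02 ± 0.12. Meiob and Spata22, whose products bind single-stranded DNA together, were at -0.01 ± 0.14 and -0.17 ± 0.08. Spata22 was the 1 member feature with all AA2G arrays below the untreated arrays (3.57, 3.53 and 3.61 against 3.49, 3.39 and 3.31), and it did not pass (adjusted p = 0.517).

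Among the crossover genes, Msh4, Mlh3 and Tex11 had separate groups and did not pass. Msh4 read 4.20, 4.19 and 4.33 against 4.39, 4.57 and 4.59 (adjusted p = 0.294), while Msh5, whose product forms a clamp with MSH4, was at -0.11 ± 0.08 (SE). Mlh3, an endonuclease gene that is also used outside meiosis, read 7.44, 7.49 and 7.55 against 7.66, 7.83 and 7.70 (adjusted p = 0.330). For both, the nearest arrays of the groups are close together. Tex11, on the X chromosome, read 6.41, 6.44 and 6.40 against 6.52, 6.56 and 6.53, a step of 0.12 with very narrow groups (adjusted p = 0.629). Tex15, which is needed to load DMC1 at breaks, was at 0.26 ± 0.10 (adjusted p = 0.462). Rnf212, a crossover factor of the SUMO pathway, and the helicase gene Hfm1 were at 0.10 ± 0.18 and 0.17 ± 0.11, with groups that overlap.

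Of the 3 genes whose products fix telomeres to the nuclear envelope, Terb2 rose (33.3%, against 0.608% of all features called higher). Terb2 (74401, chromosome 2) read 4.63, 4.53 and 4.90 without and 5.46, 5.67 and 5.55 with AA2G. All AA2G arrays exceeded the highest untreated array, replicate 3. The difference was 0.87 ± 0.11 (SE; 1.83-fold; adjusted p = 0.0123). The call was lost without untreated replicate 1 (adjusted p = 0.0609), AA2G replicate 2 (0.0606) or AA2G replicate 3 (0.0631), in the fit of all features (0.0531) and with ordinary variances (0.216), the highest of 15 alternatives, of which the lowest was 0.00663.

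Majin, the membrane anchor of the same complex, read 5.41, 5.49 and 5.67 against 5.85, 5.83 and 5.82. The AA2G arrays were nearly alike and above the untreated ones, and the difference of 0.31 ± 0.09 (SE) had an adjusted p of 0.217. Terb1, which links the complex to the shelterin protein TRF1, was at -0.03 ± 0.12 with overlapping groups. Terf1, the gene of TRF1, was at 0.20 ± 0.09 (adjusted p = 0.524).

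Aurkc (20871, chromosome 7), an Aurora kinase of meiotic divisions, rose at 1 of its features. That feature read 5.80, 5.64 and 5.80 against 6.20, 6.18 and 6.31, a clear step between narrow groups, with a difference of 0.49 ± 0.08 (SE; 1.40-fold; adjusted p = 0.0419). The second feature read 4.58, 4.28 and 4.30 against 4.33, 4.22 and 4.41, with overlapping groups and a difference of -0.07. The 2 features thus disagree. The call was lost with each array left out, with adjusted p from 0.0954 without untreated replicate 1 to 0.191 without AA2G replicate 3, and in the fit of all features (0.125). Over 15 alternatives the adjusted p ran from 0.0130 to 0.203, and 6 called the feature. Meioc, which acts with YTHDC2 to hold germ cells in meiotic prophase, was at -0.05 ± 0.13.

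**Figure D4:**
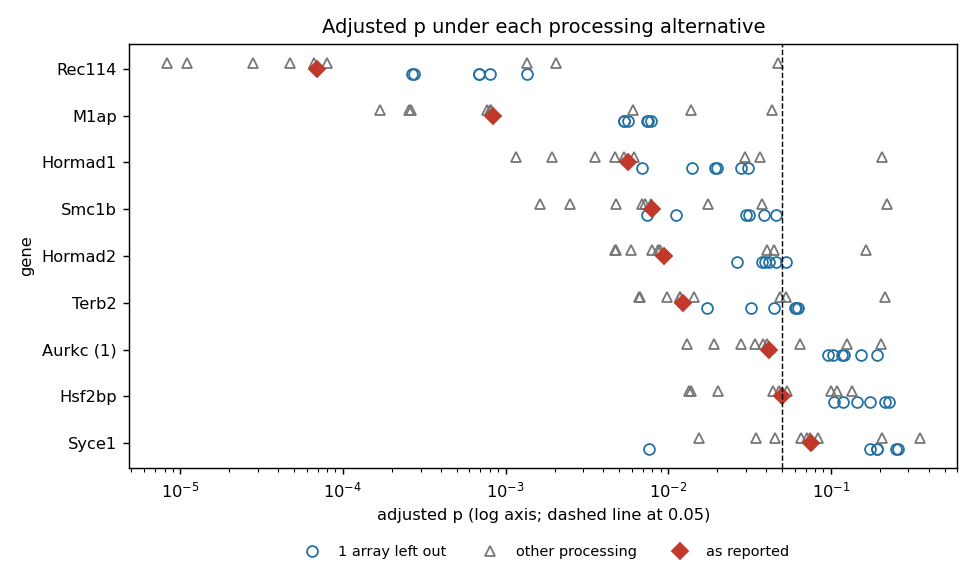
Adjusted p (x axis, log scale) of the 7 called features and of Hsf2bp and Syce1 as reported (diamonds), with 1 array left out (circles) and under other processing (triangles), with the threshold of 0.05 as a dashed line. Rec114 and M1ap lie under 0.05 in all 15 alternatives, while every circle of Aurkc lies above it.

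A further 26 meiotic genes outside the members were listed, and 19 of them were measured on 20 features with a single symbol. Of these features 1 rose (5%, against 0.608% of all features), 0 fell and 19 did not pass, and the median difference was 0.07. The one that rose was Stra8, the gene that starts the meiotic programme in response to retinoic acid. It read 6.04, 6.20 and 6.23 against 6.75, 7.13 and 6.89, a difference of 0.77 ± 0.11 (SE; adjusted p = 0.0218), and this call was lost when any array but AA2G replicate 1 was left out (adjusted p from 0.0547 to 0.0920). With ordinary variances its adjusted p was 0.243. Mcmdc2, needed for strand invasion, was at 0.33 ± 0.07 (adjusted p = 0.129), and the synaptonemal gene 4930447C04Rik, known as Six6os1, at 0.28 ± 0.09 (adjusted p = 0.289). All 3 have groups that do not overlap, but they are the genes with the smallest unadjusted p of the list. The AA2G arrays all lay above the untreated arrays for 5 of the 20 features (25%, against 7.21% of all features). They all lay below for 1 (5%, against 8.48%). Positive differences with an unadjusted p under 0.05 were found for 5 and negative ones for 1, against 1095 and 1189 of all 23521 features. The negative one was a feature of Prr19 at -0.21 ± 0.08 (SE), while another Prr19 feature was at -0.0011.

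Genes that do the corresponding work in dividing somatic cells were measured on 64 features in 3 lists, of recombination and repair, cohesin, and telomere and nuclear envelope partners. Of these limma called 0, against 0.761% of all features, and the median difference was -0.01. An unadjusted p under 0.05 was reached by 2 with positive and 1 with negative differences, against 1095 and 1189 of all 23521 features. The repair list (36 features) had a median of 0.00, with Brca2 as its smallest p, and Rmi1 and Atr next at -0.19 ± 0.11 (SE) and 0.12 ± 0.08. The cohesin list (17 features) had a median of -0.05, with Pttg1, the gene of securin, at 0.39 ± 0.08 (adjusted p = 0.0879), then Stag2 at -0.26 ± 0.10 and Nipbl at -0.12 ± 0.07. In the cohesin list 5 differences were positive (29.4%, against 47.7% of all features). All AA2G arrays lay below the untreated arrays for 4 of its features (23.5%, against 8.48%) and above for 2 (11.8%, against 7.21%). The telomere list (11 features) had a median of 0.02, with Terf2 at -0.23 ± 0.11 and the shelterin gene Acd at 0.15 ± 0.08 beside Terf1.

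**Figure D5:**
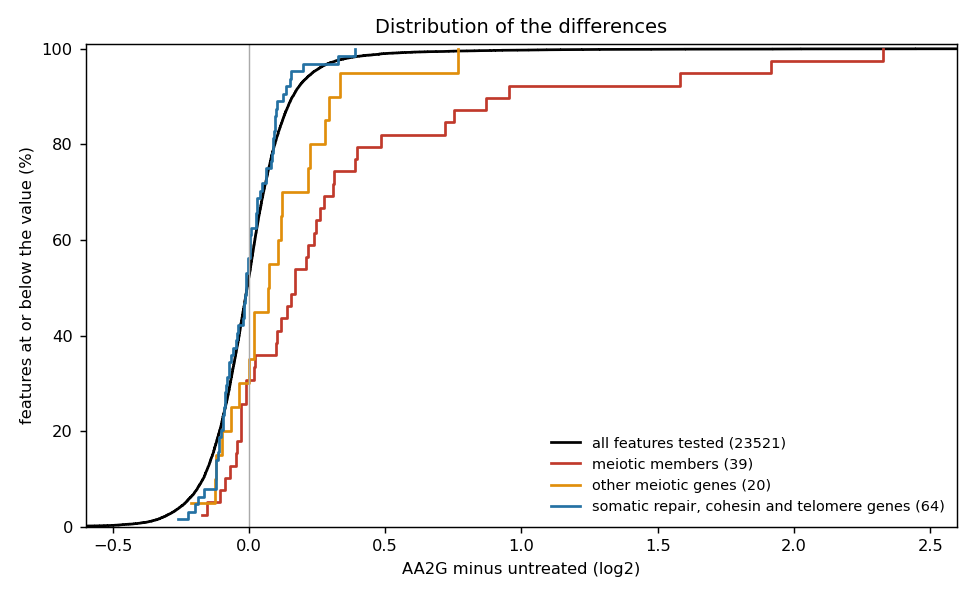
Cumulative share of features (y axis, %) against the difference between AA2G and untreated arrays (x axis, log2) for all 23521 features tested, the 39 member features, 20 features of other meiotic genes and 64 features of somatic repair, cohesin and telomere genes. The member curve is shifted to the right, with a median of 0.17. The somatic curve, which pools 3 lists, has a median of -0.01, as have all features.

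Of 20 genes of germ cell identity, 5 rose (25%, against 0.608% of all features) and 0 fell. The 5 were Sohlh2 (2.45 ± 0.08; SE), Dazl (2.37 ± 0.14), Mov10l1 (1.57 ± 0.08), Mael (1.14 ± 0.13) and Piwil2 (0.73 ± 0.11). Mov10l1, Mael and Piwil2 act in the piRNA pathway, and Sohlh2 and Dazl encode a germ line transcription factor and an RNA binding protein. The calls of Mael and Piwil2 were lost with some arrays left out (adjusted p up to 0.0602 without untreated replicate 3 for Mael and 0.140 without AA2G replicate 3 for Piwil2). With ordinary variances Dazl (adjusted p = 0.0972), Mael (0.219) and Piwil2 (0.265) did not pass. The 15 other genes of the list did not pass, and the median difference over the list was 0.06. An unadjusted p under 0.05 was reached among them by Taf7l at 0.58 ± 0.13 and Ddx4 at -0.17 ± 0.07, both named after their values were seen, and all AA2G arrays of Ddx4 lay below the untreated arrays. The list mean ran from 6.16 to 6.21 over the untreated arrays and from 6.59 to 6.65 over the AA2G arrays. Of 14 markers of mouse embryonic stem cells, 0 were called in limma, against 0.761% of all features. A negative difference with an unadjusted p under 0.05 was found for 3 markers, against 1189 of all 23521 features. The 3 markers were Klf4 at -0.31, Nanog at -0.17 and Pou5f1 at -0.16. The list mean of the 14 markers ran from 9.69 to 9.72 without and from 9.60 to 9.63 with AA2G.

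Of 49 features of other cell types that such a culture could hold, limma called 0, against 0.761% of all features. An unadjusted p under 0.05 was reached by 2 with positive and 4 with negative differences, against 1095 and 1189 of all 23521 features. The list means over untreated and AA2G arrays ran from 5.92 to 5.99 and 5.96 to 6.02 for primitive endoderm (Lama1 at 0.50, Sparc at 0.34, Sox7 at -0.20), from 5.20 to 5.25 and 5.12 to 5.27 for trophoblast (Krt8 at -0.35), and from 5.31 to 5.50 and 5.34 to 5.37 for mesoderm and streak (Mixl1 at -0.23). They ran from 5.87 to 5.94 and 5.83 to 5.96 for neuroectoderm (Sox1 at -0.19) and from 4.96 to 4.97 and 4.90 to 5.00 for fibroblast feeder cells (Dcn at -0.27). These ranges overlap in all 5 lists, and their part in the member results was not tested.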

How the data were processed

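Gene expression was measured on 6 Affymetrix Mouse Gene 2.0 ST arrays, 3 a group. The deposited values are log2 values that the authors computed by RMA, for which the submitters' processing notes name Affymetrix Expression Console, and RMA comprises background correction, quantile normalization and a summary per feature. The sources used here give no software version, genome build of the array or filter. Values ran from 1.20 to 13.2, with array medians from 5.06 to 5.10. Precision is limited by the number of arrays.

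The 23521 features with 1 symbol (22180 genes) were fitted together in limma 3.58.1 under R 4.3.3 (lmFit, eBayes, two-sided, no covariate), with Benjamini-Hochberg adjustment over all of them and no filter. An exact permutation test of 3 against 3 cannot give a p below 0.1, so none was used. The fit was tested on simulated data. What the p-values take as error is the variation among the 3 samples of each group, combined with a prior variance pooled over all features. The residual degrees of freedom were 4, and 8.05 with the prior. The samples are labelled as independent, and part of their variation may be technical.

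The members and lists were chosen with earlier results of these data known. Members are all described. Of other lists, called genes and up to 3 genes with the smallest unadjusted p were to be named, and further genes are named as partners of members. List names were matched through RefSeq (GRCm38.p6) identifiers and synonyms. Promoter windows and their coordinates are RefSeq's on GRCm38.p6, and both motifs were counted on both strands with overlaps allowed. The 15 alternatives changed the normalization, variance prior, weights, replicate block, features tested and arrays used.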

Additional observations from a re-analysis of the deposited data

How the results depend on the processing

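The number of features called over the whole table, 179, moved to 277 with a trended robust prior, 496 with array weights and 13 with ordinary per-feature variances, and lay between 64 and 131 with an array left out. Member features called, 7, became 9 with a trended robust prior, array weights or brighter features only. The filter for brighter features took a mean above 4.99 over both groups. Hormad1 and Terb2, with untreated means of 4.14 and 4.69, passed it only through their AA2G arrays. Members dim in both groups, such as Spo11 and Meiob, were left out of that fit. The member count became 8 with a repeated quantile normalization or the brightest feature of each gene and 5 in the fit of all features. It was 2 with ordinary variances (Rec114 and M1ap) and between 4 and 7 with an array left out. The other meiotic features called, 1, became 2 with array weights, 0 with ordinary variances and 0 in the fit of all features, and 0 or 1 with an array left out. Of the values of single members under the alternatives, 541 kept their call status, 18 lost and 9 gained the call, and 0 calls reversed. Most of the 541 were called in neither fit, where a change of sign was not counted. The 18 losses all fall on the 7 called features, which kept the call in 15 of 15 alternatives (Rec114 and M1ap) down to 6 of 15 (Aurkc). The causes were not tested.

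The labels do not say whether a shared replicate number marks a shared culture or day. Deviations from the group means of same-numbered arrays correlated at 0.23, 0.22 and 0.02. Every array correlated best with its own number, but for number 3 only by a trace. Untreated replicate 3 correlated at -0.01 and -0.0013 with AA2G replicates 1 and 2, so no clear pairing is seen for number 3. With the replicate block 155 features and 6 members were called, and Aurkc did not pass (adjusted p = 0.0650). The smallest standard error of a member difference was 0.07, and dim features cannot be told from background.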

Other observations

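The promoter windows of all genes called higher differed from those of the members in E2F-type matches and CpG ratio, while E-boxes were above the share of tested genes in both, given here as a description without a test. RefSeq windows were found for 113 of the genes called higher (134 windows), which include the 7 windows of 6 called members. An E2F-type match lay in 17.2% of them, against 63.9% of member windows and 25.9% of windows of genes with a tested feature. A CpG ratio of at least 0.6 was found in 28.4%, against 63.9% and 48.0%. The E-box lay in 12.7%, against 22.2% and 8.07%, and both elements together in 5.22%, against 22.2% and 2.72%. Of the 7 windows of genes called higher that hold both elements, 3 are windows of members.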
